A study of Mus musculus with 12 samples.

Results

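A set of 9 genes of the interleukin-23 and type 17 programme was followed through mouse natural regulatory T cells (nTregs) and CD4 effector T cells (hereafter CD4 cells), each cultured with azacitidine (AzaC) or with PBS. The 9 genes were Il23r, Rora, Il17a, Il17f, Il22, Ccr6, Tmem176a, Tmem176b and Il1r1. They were read from array rows annotated with exactly 1 of these symbols, which held for 9 of 9, among 22180 genes measured in all. Il23r was chosen by its measured values, the largest rise of any gene between PBS and AzaC in nTregs, and the other 8 were added as genes of the type 17 lineage. The AzaC difference in nTregs is therefore given for all 9 genes as a description, without a test, and so is each difference of Il23r that uses nTreg arrays.

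Interleukin-23 is a cytokine of myeloid cells that is read by a receptor made of the Il23r chain and the Il12rb1 chain, which the interleukin-12 receptor also uses. The receptor signals through the kinases Jak2 and Tyk2 and the transcription factor Stat3, and it maintains T cells that make the cytokines IL-17A, IL-17F and IL-22. Such type 17 cells are governed by transcription factors that include the nuclear receptor RORα, and they are known for protection of mucosal surfaces and for tissue inflammation. A part of the regulatory T cells of the gut and of inflamed tissue shares receptors with them, among them CCR6.

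The 12 Affymetrix arrays formed 4 groups of 3, with array medians of 6.67 to 6.80 in log2 signal. The nTregs came from spleens of B6.Foxp3GFP mice, in which a green reporter marks Foxp3. The conventional partner cells were Treg-depleted T cells of B6.Foxp3GFP x B6.CAGDSRED mice, whose red DsRed protein is driven by the broadly active CAG promoter. The strain field of the labels names both reporter strains for the samples of every group. Both populations were grown together in all 4 groups, stimulated over 2 days with anti-CD3 and anti-CD28 beads plus human interleukin-2, and exposed to 1 µM AzaC or PBS over the next 2 days. AzaC, a nucleoside drug, is incorporated into DNA and RNA in place of cytidine and traps DNA methyltransferases. CD4-positive cells were then sorted as DsRed-negative, reporter-positive nTregs and DsRed-positive, reporter-negative CD4 cells. The ages of the mice were not given, and the labels leave unsaid whether samples of 1 group were separate animals or cultures, so p-values measure only the spread between these samples, which may be technical. The 6 Treg markers were called higher in nTregs than in CD4 cells under both treatments, Foxp3 by 4.29 under PBS (SE 0.16, limma adjusted p = 6.48e-09) on the log2 scale. In the reporter-negative CD4 cells Foxp3 itself rose by 1.57 with AzaC (SE 0.16, limma adjusted p = 0.000207). The first nTreg PBS array stood apart from the rest, with a mean correlation of 0.97 with the other arrays against 0.98 to 0.99 for the other 11. In such bulk RNA, a larger share of cells that express a gene and more RNA per cell cannot be told apart.

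The promoter of Il23r and the shared upstream region of Tmem176a and Tmem176b are shown because these 3 genes had the largest AzaC differences of the 9 in nTregs, and because CG dinucleotides are the sites that DNA methyltransferases methylate. The sequences are RefSeq windows of build GRCm38.p6 from 250 bases before to 50 bases after a gene's start, 5′ to 3′ on the gene's own strand. Capitals mark CG and the hexamer AGGTCA or its reverse complement TGACCT, the core that RORα recognises. The Il23r window lies at chr6:67491806-67492105 on the minus strand, the Tmem176a window at chr6:48841233-48841532 on the plus strand and the Tmem176b window at chr6:48841325-48841624 on the minus strand.
Il23r: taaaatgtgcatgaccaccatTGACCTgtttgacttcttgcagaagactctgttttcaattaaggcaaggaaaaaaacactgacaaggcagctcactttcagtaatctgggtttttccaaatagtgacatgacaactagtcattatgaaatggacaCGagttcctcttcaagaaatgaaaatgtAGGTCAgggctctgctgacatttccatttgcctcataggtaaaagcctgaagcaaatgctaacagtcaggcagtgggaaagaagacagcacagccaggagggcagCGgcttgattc
Tmem176a: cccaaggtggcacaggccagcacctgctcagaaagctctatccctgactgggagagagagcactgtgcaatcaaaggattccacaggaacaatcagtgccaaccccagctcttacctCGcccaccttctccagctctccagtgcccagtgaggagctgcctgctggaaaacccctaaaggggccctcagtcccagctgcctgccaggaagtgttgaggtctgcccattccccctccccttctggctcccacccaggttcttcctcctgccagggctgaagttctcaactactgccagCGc
Tmem176b: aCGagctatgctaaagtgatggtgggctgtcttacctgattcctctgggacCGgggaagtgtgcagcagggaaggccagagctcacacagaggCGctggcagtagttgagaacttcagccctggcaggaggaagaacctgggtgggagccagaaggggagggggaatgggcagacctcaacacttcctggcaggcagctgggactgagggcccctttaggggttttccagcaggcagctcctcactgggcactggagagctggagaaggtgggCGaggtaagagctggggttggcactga

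The Il23r window held 2 CG dinucleotides, AGGTCA at base 185 and TGACCT at base 22, counted from 1 at the 5′ end of the window. The Tmem176a and Tmem176b windows overlapped head to head and shared 208 bases, read on opposite strands, with 2 and 4 CG. All 9 genes had at least 1 window, 14 in all, since Tmem176b has 3 starts in the table and Tmem176a, Ccr6 and Il1r1 have 2 each. For Tmem176a and Tmem176b these windows held 1 to 5 CG. The windows of Ccr6 held 2 and 10 CG, those of Il1r1 5 and 14, that of Il17a 6, and those of Il17f and Il22 4 each, whereas the single Rora window held 28. Among 32851 windows of this length over all genes the median was 7 CG, 23.3% held 2 or fewer and 14.2% held 28 or more. AGGTCA or TGACCT stood in 4 of the 14 windows, those of Il23r, Ccr6 (TGACCT at base 207 of the first window), Il17a (TGACCT at base 131) and Il17f (AGGTCA at base 193), against 16.3% of all windows. The Il23r window was the only one of the 14 with 2 such hexamers, which 1.81% of all windows had. These are matches of letters and say nothing of binding or of methylation, neither of which was measured.

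**Figure D1:**
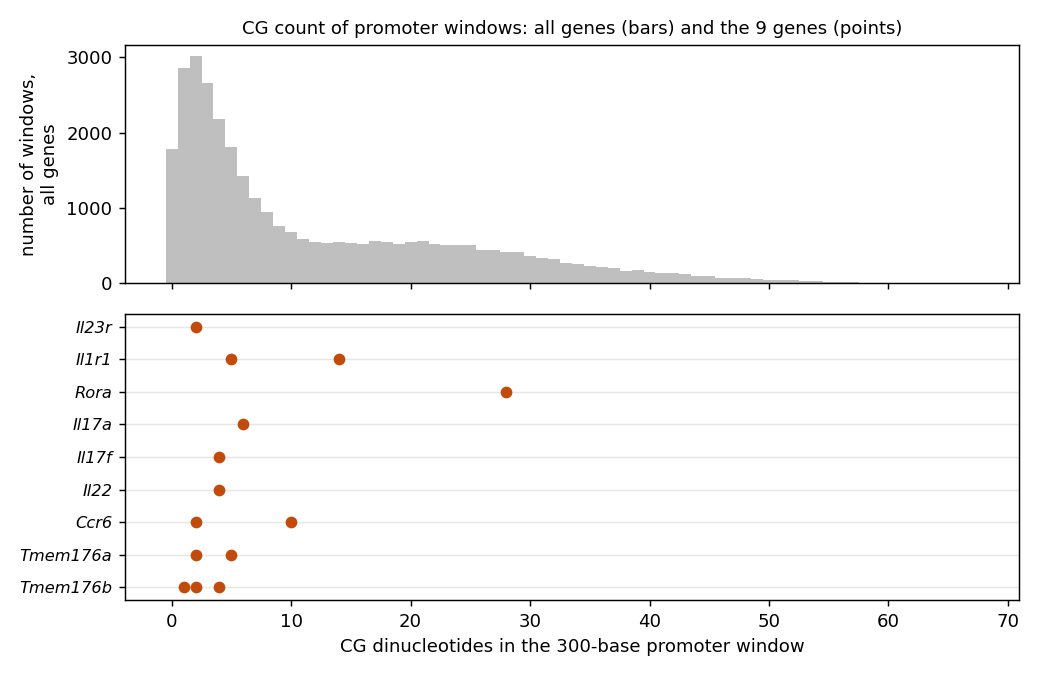
CG dinucleotides per 300-base promoter window (horizontal axis, number per window). The bars count all windows of the RefSeq table, and each point is a window of 1 of the 9 genes. Most windows of the 9 genes lie at 6 CG or fewer, with Rora at 28.

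Il23r, the ligand-specific chain of the receptor, was the gene that set the choice. Its log2 signals were 5.34, 4.87 and 4.53 in nTregs under PBS and 7.69, 7.04 and 7.05 with AzaC. In CD4 cells they were 4.75, 4.56 and 4.79 under PBS and 5.00, 5.31 and 5.27 with AzaC. The 3 nTreg AzaC arrays thus stood above all 9 others, which lay within 1 log2 unit of each other, and the first nTreg PBS array was the highest of its group. The means differed in nTregs by 2.35 (SE 0.20), a 5.08-fold difference, and it stayed between 2.13 and 2.56 when single arrays were left out. Within an array, the Il23r signal ranked at the 57.0 to 67.0 percentile of all rows in nTregs with AzaC and between 12.9 and 21.5 in nTregs under PBS and CD4 cells with AzaC. The deposited values carry no detection call, so whether the lower signals exceed background was not tested. Just past Il23r in the order of rises in nTregs stood Plagl1 at 2.30, Csn2 at 2.04, Mir19a at 2.01, Ly6g5b at 1.91 and Atp8b4 at 1.73. With AzaC, the mean of Il23r was 2.06 (SE 0.20) higher in nTregs than in CD4 cells, and 0.21 (SE 0.20) higher under PBS.

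Il1r1, the signalling receptor for interleukin-1, a cytokine that acts with interleukin-23 on type 17 cells, gave 5.66, 6.13 and 6.15 in nTregs under PBS and 6.02, 6.04 and 6.21 with AzaC. The CD4 cells gave 6.10, 5.91 and 5.98 under PBS and 6.01, 6.21 and 6.11 with AzaC. The 4 groups overlapped, and the AzaC difference in nTregs was 0.11 (SE 0.13). Rora, which encodes the nuclear receptor RORα, gave 7.79, 7.60 and 7.69 in nTregs under PBS and 7.93, 8.0 and 7.72 with AzaC. In CD4 cells it gave 7.22, 7.31 and 7.57 under PBS and 7.49, 7.57 and 7.54 with AzaC. Within each treatment all nTreg arrays of Rora lay above all CD4 arrays, while the PBS and AzaC arrays of a population overlapped, with an AzaC difference of 0.19 (SE 0.12) in nTregs.

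Il17a, a signature cytokine of the lineage, gave 5.73, 5.90 and 5.91 in nTregs under PBS and 5.98, 5.98 and 5.80 with AzaC, against 6.20, 6.01 and 5.98 in CD4 cells under PBS and 6.12, 6.10 and 6.05 with AzaC. Its nTreg arrays lay below the CD4 arrays of the same treatment. These Il17a signals ranked at the 26.8 to 38.6 percentile of all rows, and whether they exceed background was not tested. Il17f, the neighbouring gene and close relative of Il17a, gave 7.22, 6.72 and 6.65 in nTregs under PBS and 7.18, 6.89 and 6.60 with AzaC. In CD4 cells Il17f gave 7.32, 7.11 and 6.87 under PBS and 7.27, 7.14 and 6.94 with AzaC, and all 4 groups overlapped. Il22, a cytokine that acts on epithelial cells, gave 3.00, 2.73 and 2.66 in nTregs under PBS and 2.84, 2.63 and 2.82 with AzaC. In CD4 cells Il22 gave 2.66, 2.67 and 2.96 under PBS and 2.83, 2.74 and 2.64 with AzaC. These Il22 signals were among the lowest on the array, at the 0.0605 to 1.18 percentile of all rows, and the groups overlapped. Il22 lies beside Iltifb, a near-identical copy, so its signal is uncertain between both genes. The AzaC difference in nTregs was 0.07 for Il17a (SE 0.10), 0.02 for Il17f (SE 0.18) and −0.03 for Il22 (SE 0.12).

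Ccr6, the chemokine receptor for CCL20 that type 17 cells carry, gave 6.86, 7.13 and 7.11 in nTregs under PBS and 7.24, 7.32 and 7.87 with AzaC. In CD4 cells it gave 6.52, 6.29 and 6.25 under PBS and 6.61, 6.90 and 6.68 with AzaC. The AzaC arrays lay above the PBS arrays of the same population, by 0.45 (SE 0.16) in the nTreg means, with the third nTreg AzaC array the highest and a difference of 0.25 without it.

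Tmem176a and Tmem176b encode related membrane proteins of intracellular vesicles that type 17 lymphocytes and dendritic cells express, and the gene models overlap on opposite strands. Tmem176a gave 8.85, 8.81 and 8.92 in nTregs under PBS and 10.38, 10.46 and 10.36 with AzaC, and in CD4 cells 7.80, 7.57 and 8.09 under PBS and 8.14, 8.64 and 8.37 with AzaC. Tmem176b gave 8.50, 8.10 and 8.06 in nTregs under PBS and 9.76, 9.64 and 9.79 with AzaC, and in CD4 cells 6.63, 6.07 and 6.79 under PBS and 7.43, 7.48 and 7.58 with AzaC. For both genes the 4 groups did not overlap and had the same order, from CD4 cells under PBS through CD4 cells with AzaC and nTregs under PBS to nTregs with AzaC. The AzaC difference in nTregs was 1.54 for Tmem176a (SE 0.14, 2.91-fold) and 1.51 for Tmem176b (SE 0.17, 2.84-fold), which placed them 11 and 14 in the order of all rises. Whether the probes of one gene take up signal of the other was not tested.

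**Figure D2:**
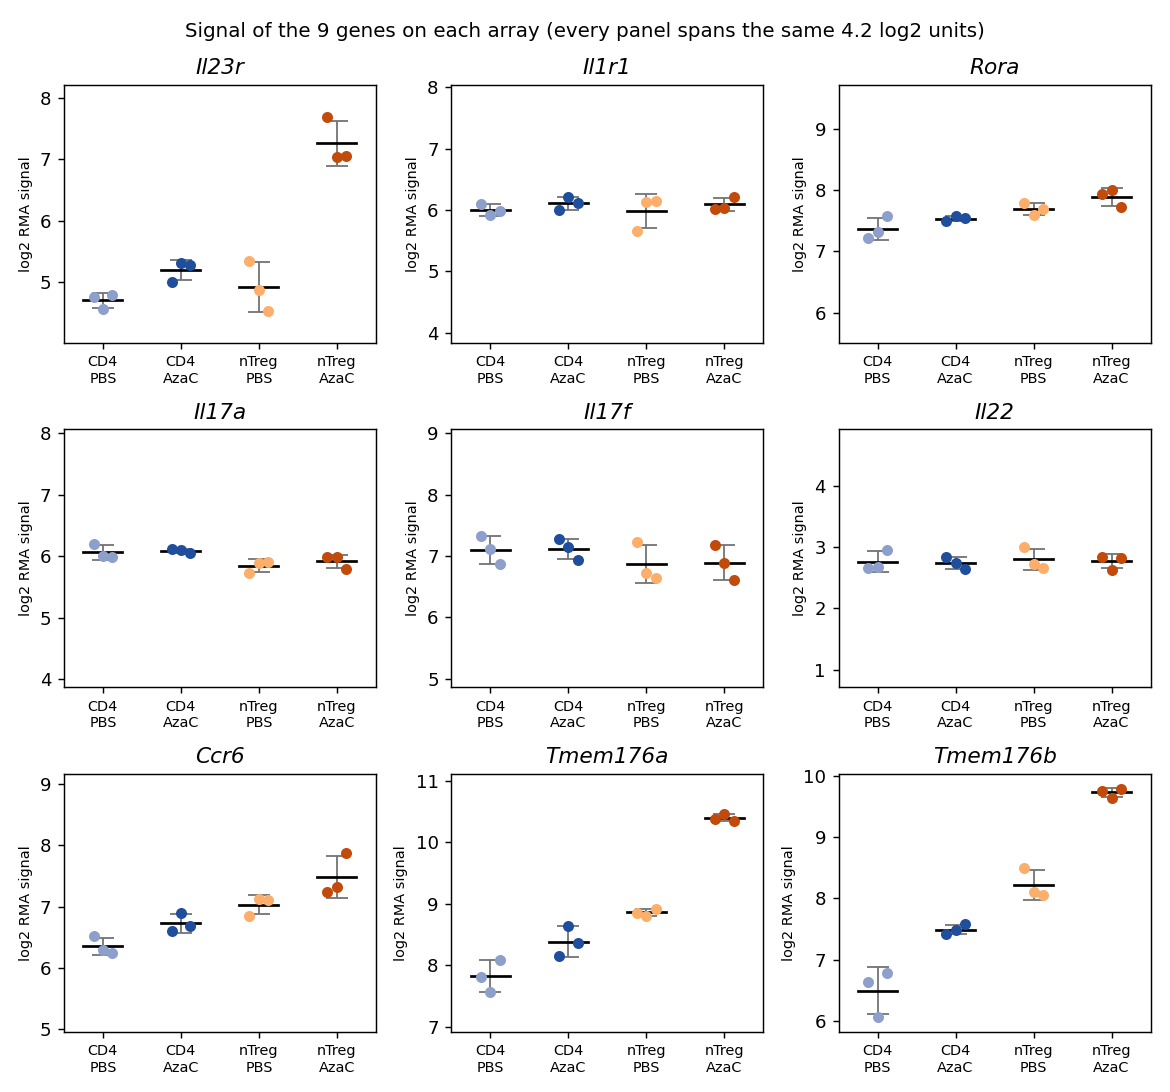
Log2 RMA signal of the 9 genes on each array (points) by population and treatment. Black bars are group means and grey bars 1 SD over 3 arrays, and every panel spans the same log2 range with its own offset. Il23r is high in the nTreg AzaC arrays alone, Tmem176a and Tmem176b step up over all 4 groups, and Il17a, Il17f and Il22 overlap between PBS and AzaC.

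The response of CD4 cells to AzaC compares CD4 arrays alone, and here all 9 genes were tested. The nTreg arrays, which chose Il23r, enter this test through the shared spread. Tmem176b rose, by 1.00 on the log2 scale (SE 0.17, 2.00-fold, limma adjusted p = 0.00687), in 3 of 3 AzaC arrays against all PBS arrays, and it also passed with the CD4 arrays fitted alone (limma adjusted p = 0.021). That made 1 of the 9 genes called higher, where 0.83% of all genes were called higher at an adjusted p under 0.05. Tmem176a (0.56, SE 0.14, limma adjusted p = 0.0648), Il23r (0.49, SE 0.20, limma adjusted p = 0.26) and Ccr6 (0.38, SE 0.16, limma adjusted p = 0.273) did not pass, although their AzaC arrays lay above their PBS arrays. Non-overlapping and higher were 4 of the 9 genes, against 11.4% of all genes. The 95% intervals ran from 0.26 to 0.87 for Tmem176a, from 0.06 to 0.92 for Il23r and from 0.04 to 0.71 for Ccr6. The other 5 genes had adjusted p-values of 0.512 to 0.973 and differences of −0.02 to 0.16. Over the 9 genes the median difference was 0.16, against 0.01 over all genes. Tmem176a passed without the third CD4 PBS array (adjusted p = 0.0342) or without the first nTreg PBS array (adjusted p = 0.038), which enters through the shared spread, and the call of Tmem176b held without any single array.

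Side by side, the AzaC differences in nTregs and CD4 cells were 2.35 and 0.49 for Il23r, 1.54 and 0.56 for Tmem176a, 1.51 and 1.00 for Tmem176b, and 0.45 and 0.38 for Ccr6. The nTreg difference exceeded the CD4 difference by 1.85 (SE 0.28) for Il23r, 0.98 (SE 0.20) for Tmem176a, 0.51 (SE 0.23) for Tmem176b and 0.07 (SE 0.22) for Ccr6, which are descriptions since the nTreg arrays chose the gene. In nTregs the AzaC arrays were higher without overlap for 4 of the 9 genes, as they were for 11% of all genes. Nothing is read from this count. The same contrast chose Il23r, and the other 8 were chosen with earlier results of these data known. The medians over the 9 genes were 0.19 in nTregs and 0.16 in CD4 cells, where all genes had −0.04 and 0.01.

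**Figure D3:**
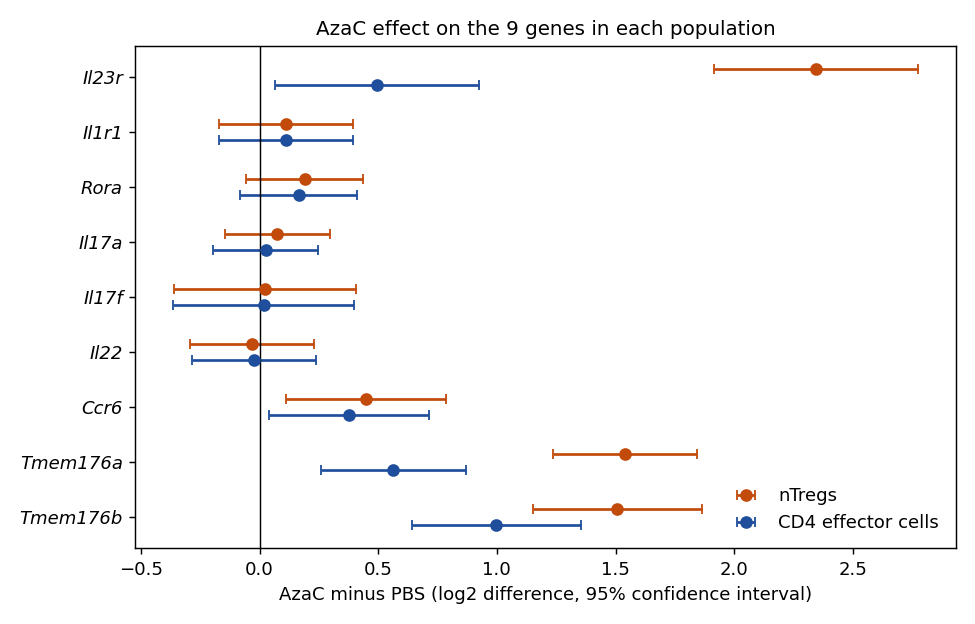
AzaC minus PBS difference (log2) of the 9 genes in nTregs and CD4 cells, with bars for the 95% interval of the limma fit. Il23r, Tmem176a and Tmem176b lie above 1 in nTregs, and the largest CD4 difference is that of Tmem176b at 1.00.

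Between the populations, 3 of the 8 tested genes were higher in nTregs under PBS. Tmem176b was higher by 1.72 (SE 0.17, 3.30-fold, limma adjusted p = 1.54e-05), Tmem176a by 1.04 (SE 0.14, 2.06-fold, limma adjusted p = 0.000391) and Ccr6 by 0.68 (SE 0.16, 1.60-fold, limma adjusted p = 0.0162), each in 3 of 3 nTreg arrays. Called higher were 3.9% of all genes in this comparison. The arrays were higher without overlap for 4 of the 8, against 13.5% of all genes. Rora had a difference of 0.32 (SE 0.12, limma adjusted p = 0.106) and Il17a one of −0.22 (SE 0.10, limma adjusted p = 0.222), both without overlap of the groups. Il17f, Il22 and Il1r1 had adjusted p-values of 0.46 to 0.953. The call of Ccr6 was lost without the second (adjusted p = 0.0608) or the third CD4 PBS array (adjusted p = 0.0669).

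With AzaC the same comparison called Tmem176b higher in nTregs by 2.24 (SE 0.17, 4.71-fold, limma adjusted p = 1.48e-06), Tmem176a by 2.02 (SE 0.14, 4.05-fold, limma adjusted p = 9.18e-07) and Ccr6 by 0.75 (SE 0.16, 1.68-fold, limma adjusted p = 0.00892). This was again 3 of the 8 tested genes, against 4.57% of all genes, and 4 of the 8 were higher without overlap, against 15.1% of all genes. Rora differed by 0.35 (SE 0.12, limma adjusted p = 0.0932) and Il17a by −0.17 (SE 0.10, limma adjusted p = 0.375), again without overlap. The other 3 had adjusted p-values of 0.5 to 0.956. Ccr6 lost its call without the first CD4 AzaC array (adjusted p = 0.052), whereas Rora passed when every array was centred on its own median (0.42, adjusted p = 0.0459) or weighted (0.32, adjusted p = 0.0318).

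The wider pathway was followed in a list of 58 measured genes. Like the 9 genes, the list was chosen with earlier results of these data known. Counts of either against the shares of all genes are therefore descriptions. In nTregs with AzaC, 5 rose and 1 fell, 6 of 58 against 2.02% of all genes in either direction. Bhlhe40, a transcription factor of cytokine-producing T cells, rose by 1.15 (SE 0.23, limma adjusted p = 0.0177). Its nTreg PBS arrays gave 8.42, 9.25 and 9.64, with the first, which stood apart, the lowest. Without single arrays its difference ran from 0.81 to 1.42 (limma adjusted p of 0.00365 to 0.0808). Cxcr6, a chemokine receptor of tissue T cells, rose by 1.00 (SE 0.15, limma adjusted p = 0.00245). Abcb1a, which encodes a drug efflux pump, rose by 0.66 (SE 0.12, limma adjusted p = 0.00973), and Sgk1, a kinase that supports Il23r expression in type 17 cells, by 0.59 (SE 0.11, limma adjusted p = 0.0165). Il12rb2, the interleukin-12 receptor chain whose gene lies next to Il23r, rose by 0.46 (SE 0.11, limma adjusted p = 0.0446). Cd5l, a regulator of lipid metabolism in type 17 cells, fell by 0.59 (SE 0.14, limma adjusted p = 0.0494), with signals of 4.64 to 5.65 over the 12 arrays. Its call was lost with median centring (−0.53, adjusted p = 0.0701). Nor was Cd5l among the calls with dim genes left out, a variance trend, same-numbered arrays as a block or only the groups compared. The list count dropped to 1, 1 and 3 without the first, the second or the third nTreg AzaC array, and only Cxcr6 was called without each single array.

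By role, 0 of 9 ligands passed in limma in nTregs, with 2 at an unadjusted p under 0.05. Il23a, the subunit particular to interleukin-23, had −0.02 and Il12b −0.16. Of 11 receptors besides the members, Il12rb2 alone passed in nTregs. Il12rb1, the partner chain of Il23r, gave 9.12, 9.95 and 9.96 in nTregs under PBS and 10.27, 10.39 and 10.41 with AzaC, so the groups did not overlap and the first PBS array was the lowest. Its difference of 0.68 (SE 0.18) did not pass (limma adjusted p = 0.0766), and it passed without the second (adjusted p = 0.0497) or the third nTreg PBS array (adjusted p = 0.0468). Without the first nTreg PBS array it was 0.40 (adjusted p = 0.103). Il1r2, the decoy interleukin-1 receptor beside Il1r1, had 0.64 (adjusted p = 0.143), Il1rap, the co-receptor, 0.05 and Il6ra −0.01. Of 5 signalling genes 0 passed in limma, with 3 at an unadjusted p under 0.05. These 3 were Jak2 at 0.46 (adjusted p = 0.0766), Tyk2 at 0.48 (adjusted p = 0.261) and, lower, Stat4 at −0.25 (adjusted p = 0.235). Stat3 had 0.23 (adjusted p = 0.32) and was not among them. Without the first nTreg PBS array the differences were 0.15 for Tyk2 (adjusted p = 0.628) and 0.15 for Stat3 (adjusted p = 0.621). Among 13 measured transcription factors and regulators 2 rose, Bhlhe40 and Sgk1, while Batf (0.24), Irf4 (0.17), Ahr (0.11) and Maf (0.03) did not pass. Of 13 genes of the IL-17 and IL-22 families and their receptors 0 passed, with 2 at an unadjusted p under 0.05.

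In CD4 cells AzaC changed 1 of the 58 genes, against 1.76% of all genes: Nfil3, a basic leucine zipper repressor, fell by 0.52 (SE 0.12, limma adjusted p = 0.0404). The call of Nfil3 was lost when any of 10 of the 12 arrays was left out, and held without the first or the third nTreg PBS array. Without the first nTreg PBS array 6 list genes passed. Batf, an AP-1 factor needed for type 17 differentiation, had −0.51 (SE 0.12, limma adjusted p = 0.0504). Il12rb1 had 0.39 (adjusted p = 0.326) and Maf 0.54 (adjusted p = 0.26). Il12rb2 (0.17), Stat3 (−0.07), Jak2 (0.03), Tyk2 (−0.15), Il6ra (−0.14), Il1rap (−0.28), Il1r2 (0.08), Ahr (0.11) and Irf4 (0.32) had adjusted p-values of 0.309 to 0.925. The AzaC difference was larger in nTregs than in CD4 cells for 2 of the 58 genes, Sgk1 by 1.05 (SE 0.16, limma adjusted p = 0.0198) and Cxcr6 by 1.28 (SE 0.21, limma adjusted p = 0.0252), against 0.203% of all genes. In the same test Batf (0.75), Tyk2 (0.63), Il1r2 (0.56), Jak2 (0.43), Il1rap (0.32) and Stat3 (0.30) did not pass. Nor did Il12rb2 (0.29), Il12rb1 (0.28), Il6ra (0.13), Ahr (−0.0042), Irf4 (−0.15) and Maf (−0.50). Their limma adjusted p-values were 0.108 to 0.992. With all arrays 11 of the 58 stood at an unadjusted p under 0.05. Without single arrays the count of calls ran from 0 to 2, and it was 0 without any 1 of the first CD4 PBS, first CD4 AzaC, the third CD4 AzaC and all nTreg AzaC arrays.

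Under PBS, 8 of the 58 genes were higher and 10 lower in nTregs than in CD4 cells, 18 against 8.01% of all genes in either direction. Maf, a factor that drives Il10, was higher by 2.81 (SE 0.22, limma adjusted p = 1.88e-06), Il10 by 1.56 (SE 0.13, limma adjusted p = 5.14e-06) and Il1r2 by 1.53 (SE 0.21, limma adjusted p = 0.000391). Nfil3 (0.80), Hif1a (0.73) and Batf (0.65) were higher too. Il6ra, the interleukin-6 receptor chain, was lower by 1.27 (limma adjusted p = 0.000124), and Il18r1 (−0.77), Tgfbr2 (−0.78) and Il12rb2 (−0.46) were lower as well. Il12rb1 had 0.41 (SE 0.18, limma adjusted p = 0.194), and 0.69 without the first nTreg PBS array (adjusted p = 0.00162). Jak2 (−0.41), Tyk2 (−0.33), Stat3 (−0.29), Il1rap (−0.12), Ahr (−0.06) and Irf4 (0.13) did not pass, and Tyk2 had −0.0044 without the first nTreg PBS array (adjusted p = 0.991).

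With AzaC, 12 of the 58 genes were higher and 5 lower in nTregs, 17 against 6.75% of all genes. Il12rb1 passed here, at 0.69 (SE 0.18, limma adjusted p = 0.0338), and lost its call without any single array of either AzaC group (adjusted p of 0.0563 to 0.138). Maf was higher by 2.30, Il1r2 by 2.09, Batf by 1.40, Il10 by 1.28, Nfil3 by 1.13, Sgk1 by 0.99 and Hif1a by 0.68. Il6ra was lower by 1.14 (SE 0.15, limma adjusted p = 0.000279). Il12rb2 (−0.17), Stat3 (0.00), Jak2 (0.02), Tyk2 (0.30), Il1rap (0.21), Ahr (−0.06) and Irf4 (−0.02) did not pass.

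**Figure D4:**
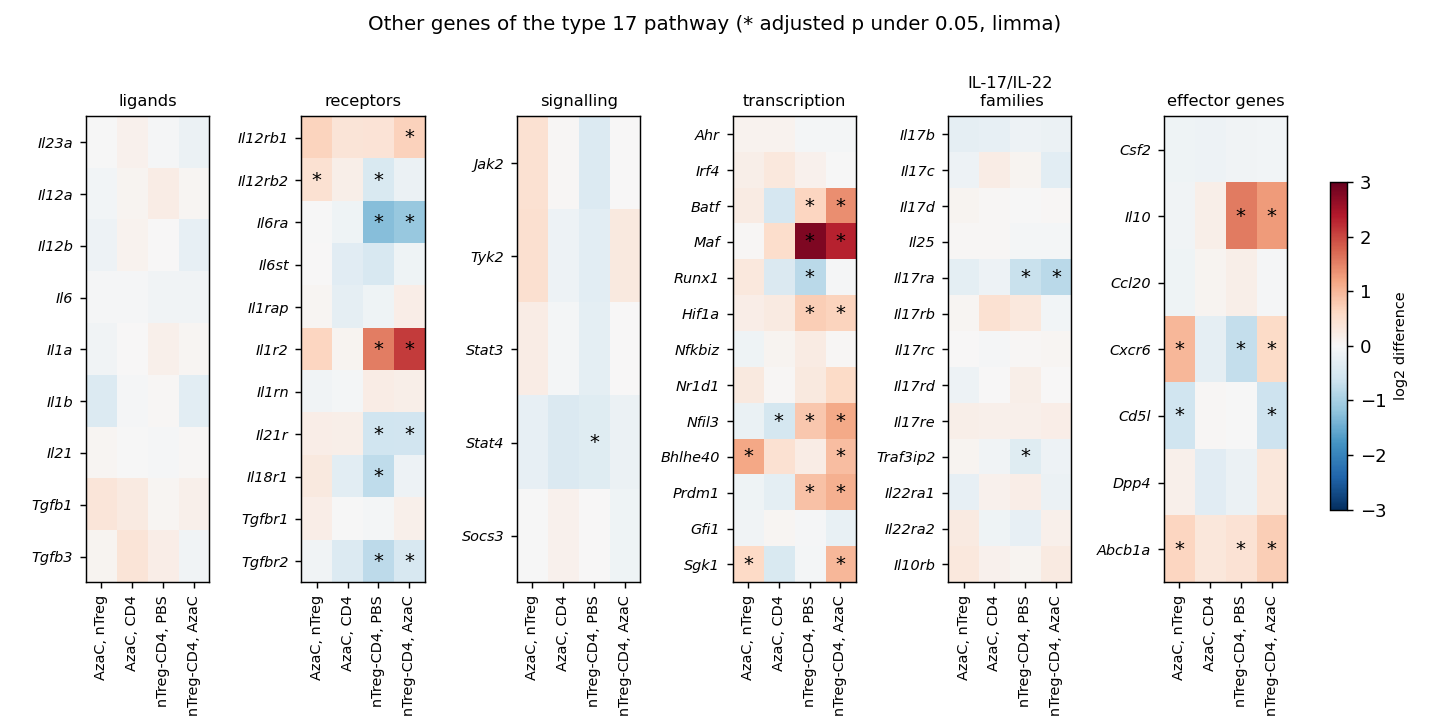
Log2 differences of the 58 measured genes of the wider list by role, as colour from blue (lower) to red (higher), in 4 columns: the AzaC response of nTregs, that of CD4 cells, and the nTreg to CD4 contrast for each treatment. Asterisks mark a limma adjusted p under 0.05; ligands carry none, and Maf under PBS is the deepest red at 2.81.

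Genes with a profile like that of Il23r were ranked over all 12 arrays by the root mean square difference of mean-centred log2 signals, a measure in which the nTreg AzaC arrays weigh most. The nearest of 22179 genes were Csn2 at 0.35, Scin at 0.41, Muc1 at 0.42, Tmem176a at 0.43 and Plagl1 at 0.47, where the median gene lay at 1.08. Csn2 encodes a milk casein, Scin an actin-severing protein and Muc1 a membrane mucin. Csn2 gave 4.47, 4.76 and 4.70 in nTregs under PBS and 6.63, 6.52 and 6.91 with AzaC. Tmem176b ranked 19 and Ccr6 206, and Il17a and Il17f lay beyond the median. The nearest to Tmem176a were Itgae, the integrin CD103, at 0.29, Lilrb4a, an inhibitory receptor, at 0.30 and Tmem176b at 0.32, with Il23r at rank 23. These distances describe 12 arrays of 4 groups.

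**Figure D5:**
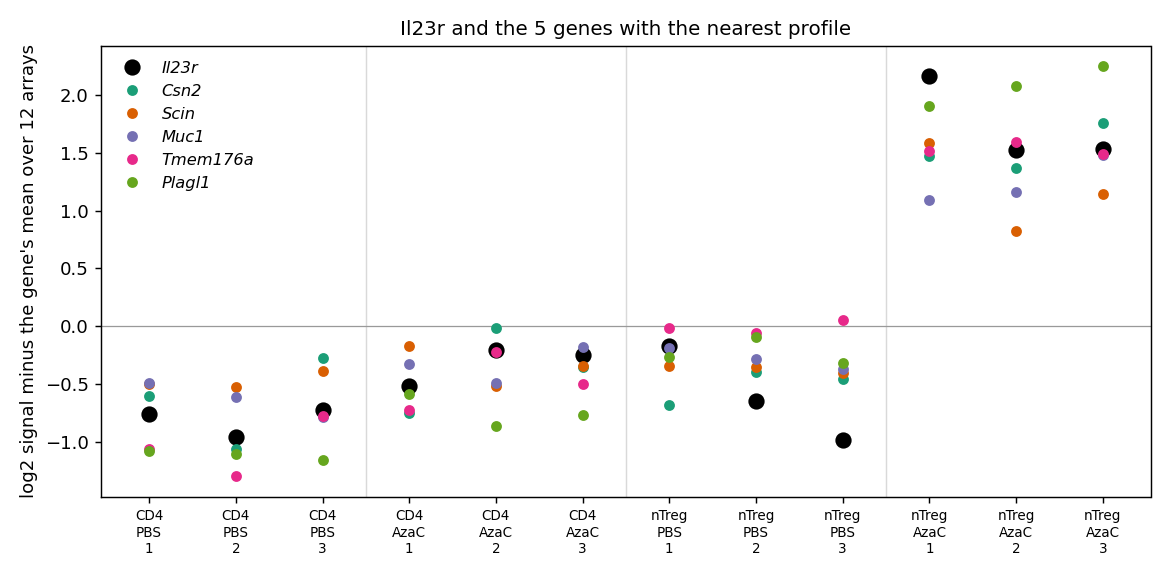
Log2 signal minus each gene's own mean over the 12 arrays for Il23r and its 5 nearest genes (vertical axis), array by array. All 6 genes are highest in the 3 nTreg AzaC arrays.

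Markers of other cells that express type 17 genes were read beside these results. The gamma-delta T cell list had 3 of 7 genes measured (Sox13, Blk and Cd163l1), 0 of 3 passed in limma in nTregs with AzaC, with 0 at an unadjusted p under 0.05, and its summed level on the log2 scale was 8.69 to 8.82 under PBS and 8.57 to 8.67 with AzaC. Of 7 innate lymphoid and NK markers Kit alone passed in nTregs, with a rise of 1.41 (SE 0.14, limma adjusted p = 0.000106). At an unadjusted p under 0.05 stood 4 of the 7. Besides Kit these were Zbtb16 at 0.64 (limma adjusted p = 0.0532), Klrk1 at 0.36 (0.192) and, lower, Klrb1c at −0.50 (0.201). The summed level of the 7 went from 10.55 to 10.67 under PBS to 10.76 to 10.91 with AzaC. Both CD8 genes rose in nTregs, Cd8a by 1.39 (SE 0.19, limma adjusted p = 0.0018) and Cd8b1 by 0.72 (SE 0.15, limma adjusted p = 0.0213). Their summed level was 10.35 to 10.69 in nTregs under PBS and 11.24 to 11.37 with AzaC, and 9.74 to 10.40 in CD4 cells. Of 4 CD4 T cell markers (Cd4, Cd3e, Cd3d and Cd5) 0 passed in limma in nTregs with AzaC, with 0 at an unadjusted p under 0.05. Between the populations under PBS, Cd4 (−0.83, limma adjusted p = 0.00408) and Cd3e (−0.77, limma adjusted p = 0.0147) were lower in nTregs, and the other 2 did not pass. With AzaC 0 of the 4 passed between the populations. Of 7 measured myeloid and dendritic markers Itgam alone passed in nTregs, with a fall of 0.94 (SE 0.21, limma adjusted p = 0.0335). At an unadjusted p under 0.05 stood 2 of them, the other being Lyz2 at −0.69 (limma adjusted p = 0.089). Their summed level was 9.27 to 9.37 under PBS and 8.84 to 9.05 with AzaC. Of 3 measured B cell markers 0 passed in limma, with 0 at an unadjusted p under 0.05, and their sums lay between 7.79 and 7.94 in nTregs. The part of the CD8, innate lymphoid and myeloid markers in the Il23r and Tmem176 values was not tested.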

How the data were processed

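Transcript levels of the sorted populations were read on 12 arrays, 3 per group. The authors deposited log2 signals; the submitters' processing notes name RMA and Affymetrix Expression Console, while versions and genome build are not given in the sources used here. RMA corrects background, makes array distributions equal and summarises probes, so a shift shared by all genes is removed. Of 41345 rows, 23521 had exactly 1 symbol in the platform annotation, and the brightest row per gene left 22180 genes, with no filter on dim signals. The 4 group means were estimated jointly in limma 3.58.1 (R 4.3.3), with 8 residual and 5.95 prior degrees of freedom, and p-values were adjusted by Benjamini-Hochberg over 22180 genes, with calls at an adjusted p under 0.05. Every adjusted p is limma's. The median SE of a difference was 0.13, and 3 arrays per group limit the precision. In simulated data with these spreads, a change of 1 was recovered for 80% to 88% of genes and one of 0.5 for 21% to 31%, over the 4 pairwise comparisons.

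Named were the 9 genes, up to 8 called list genes per comparison by smallest p with 12 measured list genes fixed for every comparison, lineage markers, and the nearest 5 and 3 genes by profile, passing over predicted models, small RNAs, receptor segments and histones. Genes singled out in the closing section, those ranked after Il23r and Stat4 were named after their values were seen. The 9 genes and all lists were chosen with earlier results of these data known. Marker sums add linear signals and are given as log2. Promoter windows were taken from RefSeq (GRCm38.p6). Alternatives were the lowest 25% of genes left out, median centring, the mean over a gene's rows, single arrays left out, only the groups compared, array weights (statmod 1.5.0), a variance trend and same-numbered arrays as a block.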

Additional observations from a re-analysis of the deposited data

Results flagged for a closer look

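Among genes of the wider list and the markers, 3 had AzaC differences that were larger in nTregs than in CD4 cells by the interaction test in limma. Over all genes this test called 0.203% in either direction. Sgk1 differed by 1.05 (SE 0.16, adjusted p = 0.0198), with its nTreg AzaC arrays at 8.82, 9.01 and 8.79 against 8.15 to 8.36 under PBS, and its CD4 AzaC arrays at 7.83 to 7.93 against 8.19 to 8.54. Cxcr6 differed by 1.28 (SE 0.21, adjusted p = 0.0252), with nTreg values of 7.66 to 7.99 with AzaC and 6.53 to 7.04 under PBS, and CD4 values of 7.06 to 7.47 and 7.47 to 7.52. Kit differed by 1.07 (SE 0.19, adjusted p = 0.0399), and its adjusted p ran from 0.0272 to 0.14 without single arrays. Leaving out 1 array at a time, the call was lost in 7 of 12 fits for Sgk1, 8 for Cxcr6 and 9 for Kit.

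For 2 further list genes all AzaC arrays lay above the PBS arrays in nTregs and below them in CD4 cells. In nTregs alone 11% of all genes were higher without overlap. The share of all genes with opposite directions is not given here, so nothing is read from the count of 2. Il18r1 gave a difference between the effects of 0.61 and Batf one of 0.75, and neither passed the interaction test (limma adjusted p of 0.16 and 0.108).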

How the results depend on the processing

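The 3 arrays per group and a median SE of 0.13 limit every value, and the cause of each change below was not tested unless it lies in the setting itself (fewer genes, fewer arrays). Alternatives for the difference between the AzaC effects were chosen after seeing the data. The calls of Tmem176b in CD4 cells and of Tmem176a, Tmem176b and Ccr6 between the populations held under every setting other than leaving out single arrays.

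Genes called in nTregs went from 448 to 1290 with array weights and 125 with only the groups compared, and list genes from 6 to 11 and 1. In CD4 cells 391 became 1291 with array weights. Of the 9 genes, 2 in place of 1 were called in CD4 cells with dim genes left out and with array weights. List genes in CD4 cells went from 1 to 5 with dim genes left out, 5 with median centring, 3 with the mean over rows, 11 with array weights, 2 with a variance trend and 0 with only the groups compared. Under PBS 1777 genes between the populations became 648 with only the groups compared, and list genes 11 in place of 18. With AzaC 1498 became 3500 with array weights and 2350 with only the groups compared. The difference between the effects went from 45 genes to 80 with dim genes left out, 91 with median centring and 401 with array weights, where 4 list genes in place of 2 were called. Median centring moved the share of calls that were higher from 70.3% to 83.1% in nTregs, 47.1% to 29.0% in CD4 cells, 48.6% to 37.7% between the populations under PBS, 67.6% to 82.1% with AzaC and 71.1% to 92.3% for the difference between the effects, in which it moved every gene by 0.13.

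Same-numbered arrays were not paired by the labels, and their deviations correlated above 0.1 in every pair in none of the comparisons. With the replicate block 4 list genes in place of 6 were called in nTregs, where Il12rb2 (adjusted p = 0.0532) and Cd5l (adjusted p = 0.0685) lost the call, 0 list genes were called in CD4 cells in limma (18 of 58 stood at an unadjusted p under 0.05 without it), and the calls numbered 451 in nTregs, 380 in CD4 cells, 1826 under PBS, 1434 with AzaC and 40 for the difference between the effects.

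Among tested differences of named genes, signs turned for some that did not pass the threshold. With median centring these were Il6ra in nTregs (0.053), Il17a (−0.042), Il17f (−0.051) and Jak2 (−0.036) in CD4 cells, Il22 under PBS (−0.017), Il1r1 (0.058), Ahr (0.014) and Irf4 (0.054) with AzaC, and Ahr between the effects (0.12). With array weights they were Maf in nTregs (−0.069), Il17a (−0.0089), Il17f (−0.12) and Il22 (3.0e-05) in CD4 cells, Il1r1 under PBS (0.11), Jak2 with AzaC (−0.0071) and Ahr between the effects (0.032). With the mean over rows Il1rap turned in nTregs (−0.037), in CD4 cells (0.062), under PBS (0.021), with AzaC (−0.078) and between the effects (−0.099). Untested differences of the 9 genes that turned were Il22 in nTregs (0.030 with median centring and 0.054 with array weights), Il1r1 in nTregs (−0.0047 with array weights), and, between the effects, Il22 and Il1r1 with median centring (0.12 and 0.13) and Il22 and Rora with array weights (0.054 and −0.014).

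Leaving out single arrays gave 186 to 447 calls in nTregs, 164 to 1044 in CD4 cells (1044 without the first nTreg PBS array), 1042 to 1862 under PBS, 896 to 2467 with AzaC and 9 to 69 for the difference between the effects. List genes ran from 1 to 6, 0 to 6, 13 to 19, 12 to 18 and 0 to 2, and the 9 genes from 1 to 2 in CD4 cells and 2 to 3 in both comparisons of populations. Among tested differences of named genes, ranges that crossed 0 were, in nTregs, −0.15 to 0.072 for Il6ra, −0.088 to 0.18 for Il1rap and −0.14 to 0.20 for Maf. In CD4 cells they were −0.016 to 0.095 for Il17a, −0.097 to 0.13 for Il17f, −0.074 to 0.074 for Il22, −0.077 to 0.33 for Il1r2, −0.27 to 0.024 for Il6ra and −0.044 to 0.14 for Jak2. Under PBS they were −0.065 to 0.13 for Il22, −0.10 to 0.14 for Il1r1, −0.16 to 0.041 for Ahr, −0.25 to 0.017 for Il1rap and −0.031 to 0.29 for Irf4. With AzaC they were −0.021 to 0.094 for Il22, −0.080 to 0.033 for Il1r1, −0.12 to 0.022 for Ahr, −0.083 to 0.051 for Irf4, −0.052 to 0.071 for Jak2 and −0.074 to 0.060 for Stat3. Between the effects they were −0.10 to 0.094 for Ahr, −0.032 to 0.26 for Il6ra and −0.31 to 0.0088 for Irf4. Ranges of untested differences of the 9 genes also crossed 0, for Il17f, Il22 and Il1r1 in nTregs, for Il23r under PBS and for Rora, Il17a, Il17f, Il22, Ccr6 and Il1r1 between the effects.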
